A study of Mus musculus with 36 samples.

Results

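The 10 genes described here encode dual-specificity phosphatases that act on MAP kinases, Dusp1, Dusp2, Dusp4, Dusp5, Dusp6, Dusp7, Dusp8, Dusp10, Dusp14 and Dusp16. They were found by gene name among the 55416 genes of the count matrix, from a list of gene names without a threshold on any value. All 10 passed the filter on low counts, which left 13995 genes for testing. All libraries came from C2C12, a mouse myoblast line, after its cells had fused into multinucleate myotubes, and none came from an animal. All groups were transfected on day 3 of differentiation with an antisense locked nucleic acid (LNA), either a negative control (control) or one against the long non-coding RNA Tug1 (Tug1 KD), and were studied 24 h later on day 4. Each LNA was a single sequence and was combined with 3 conditions. With 1 sequence against Tug1, an effect of that LNA on other RNAs cannot be told apart from loss of Tug1. Myotubes at Rest had electrodes in the medium but no current, EPS 0h myotubes were harvested at the end of 3 h of electrical pulse stimulation, and EPS 3h myotubes after a further 3 h of recovery. Each of the 6 groups holds 6 libraries of poly-A RNA, 36 in all, and each library was made from 1 well. The paper's methods give 2 independent experiments for the 6 wells of a group. The main test has no term for the experiment, so its p-value pools spread between wells with spread between experiments. It counts the 6 wells as separate samples, although at most 2 experiments are independent. The Rest myotubes serve as baseline for both time points. No separate Rest group is given for EPS 3h, so a change there cannot be told apart from longer time in culture and with the LNA.

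MAP kinases are switched on when a kinase adds phosphate to a threonine and a tyrosine in their activation loop, and dual-specificity phosphatases switch them off by removing both. Many of these phosphatases are transcribed in response to the very pathways they restrain, so that the same stimulus that activates ERK, JNK or p38 also raises their inhibitor. Contraction activates MAP kinases in muscle. Dusp1, Dusp2, Dusp4 and Dusp5 are the inducible nuclear members, Dusp6 and Dusp7 are cytoplasmic and act mainly on ERK, Dusp8, Dusp10 and Dusp16 act mainly on JNK and p38, and Dusp14 is a small atypical member without the kinase-binding domain.

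Promoter sequence of 4 members is shown first, because these genes carried the clearest EPS responses or the promoter matches described below. Each window covers bases -160 to -14 relative to the start of the canonical transcript, 5′ to 3′ on the strand of the gene, in the genome build GRCm39. Capitals mark matches on either strand to TGACGTCA (the full cyclic AMP response element) or its core TGACG, and to the CArG box bound by serum response factor. Dusp1 lies at chr17:26727507-26727653 on the minus strand, Dusp5 at chr19:53517372-53517518 on the plus strand, Dusp8 at chr7:141649066-141649212 on the minus strand and Dusp16 at chr6:134769712-134769858 on the minus strand.
Dusp1: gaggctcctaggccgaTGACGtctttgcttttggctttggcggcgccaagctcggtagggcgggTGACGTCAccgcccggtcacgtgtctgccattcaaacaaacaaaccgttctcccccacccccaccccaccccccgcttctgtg
Dusp5: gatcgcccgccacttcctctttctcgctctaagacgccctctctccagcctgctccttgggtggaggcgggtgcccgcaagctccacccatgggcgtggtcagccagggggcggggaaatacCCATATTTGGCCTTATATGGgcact
Dusp8: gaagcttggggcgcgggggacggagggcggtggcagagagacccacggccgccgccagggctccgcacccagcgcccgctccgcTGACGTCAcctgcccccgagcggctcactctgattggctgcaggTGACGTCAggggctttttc
Dusp16: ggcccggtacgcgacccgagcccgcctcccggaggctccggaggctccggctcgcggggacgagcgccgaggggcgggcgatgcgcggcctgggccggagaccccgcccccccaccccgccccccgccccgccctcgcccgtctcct
Dusp1 held TGACGTCA at bases -96 to -89, and Dusp8 held it at -76 to -69 and again at -32 to -25. Over the 250 bases upstream of the start, 2 of the 10 members and 2.01% of 13945 promoters of tested genes held this element, and the core TGACG, which lies within it, was present in 4 members (Dusp1, Dusp4, Dusp5 and Dusp8, for Dusp5 outside the window shown) and 22.8% of promoters. Dusp5 was the 1 member with a CArG box, and it had adjoining copies at -38 to -29 and -28 to -19, against 1.2% of promoters with any. The AP-1 letters TGANTCA and the TATA letters TATAAA were found in 0 members, against 5.03% and 7.96% of promoters. The E-box CAGCTG was found in 2 members (Dusp2 and Dusp7) and 11.6% of promoters, and the GC box CCGCCC in 9 members (all but Dusp6) and 46.6% of promoters. Dusp16, the member with the largest rise after EPS in control myotubes, had none of the capitalised elements in its window. These matches describe letters, and binding was not measured. Of the 250 bases, 180 for Dusp14, 149 for Dusp10 and 13 for Dusp1 lie in an annotated untranslated region of another transcript of the same gene. Of the 10 genes, Dusp4, Dusp7 and Dusp14 overlap no antisense gene in the annotation, and for the rest a share of antisense reads in the counts cannot be told apart.

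The knockdown was checked first. Tug1 ranged from 38.6 to 58.3 with a median of 47.8 in CPM (counts scaled to the library total after TMM adjustment) at Rest in control myotubes and from 24.0 to 33.3 with a median of 25.4 in Tug1 KD myotubes, with no overlap (log2FC -0.83 ± 0.17, FDR = 0.000915 by edgeR's quasi-likelihood test with Benjamini-Hochberg adjustment over all genes tested, the test used throughout, with ± giving the SE). After stimulation the difference was log2FC -0.57 (FDR = 0.0178) at EPS 0h and log2FC -0.51 (FDR = 0.0414) at EPS 3h, and Tug1 libraries of the 2 LNAs overlapped at both times. Tug1 itself was also higher after EPS under both LNAs. At EPS 3h against Rest it had log2FC 0.75 (FDR = 0.00033) in control and log2FC 1.06 (FDR = 2.69e-06) in Tug1 KD myotubes. Mean Tug1 in Tug1 KD myotubes was 45.5 CPM at EPS 0h and 57.0 CPM at EPS 3h, against 48.4 CPM in Rest control. Library totals ranged from 17005079 to 24181167 counts. The 10 myotube markers summed to between 15070 and 22290 CPM in every library, so the label of myotubes held. Fibroblast markers summed to between 1396 and 2157 CPM, most of it from collagen genes. Dcn ranged from 78.7 to 210.9 CPM, Pdgfra from 3.28 to 22.8 CPM and Thy1 from 0 to 0.369 CPM. The 6 markers of dividing or undifferentiated myoblasts summed to at most 210.4 CPM. Within groups, the leading principal component (41.2% of the variance) separated replicates 1 to 3 (set A) from replicates 4 to 6 (set B), except that EPS 3h control replicate 3 lay with set B and EPS 3h Tug1 KD replicate 3 lay between the sets. Rest Tug1 KD replicate 4 also scored near the middle of this component, at 1.07, on the side of set B. The labels do not give the experiment of a replicate number, so these sets were taken from the data. Results were also computed within each set and without the 2 EPS 3h libraries of replicate 3, named below as those that stood apart.

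Dusp4 had the highest level per length at Rest in control myotubes, 31.9 ± 5.12 CPM per kb of annotated exon (SD, n = 6). Dusp1 followed at 17.6 ± 1.42, and neither overlapped with its neighbours in the order. Dusp6 (12.2 ± 0.952), Dusp5 (10.9 ± 1.49), Dusp10 (10.6 ± 0.735) and Dusp8 (9.94 ± 1.30) formed a middle range in which each overlapped the next. Dusp14 stood at 7.73 ± 0.390 and did not overlap with Dusp2 at 5.84 ± 1.15. Dusp2, Dusp16 (4.88 ± 0.682) and Dusp7 (4.32 ± 0.745) closed the order and overlapped. The order depended on the length used. Per kb of the canonical transcript, Dusp4 and Dusp1 were still first and second at 33.3 and 29.5 CPM per kb, but Dusp10 (18.4) and Dusp8 (16.8) came before Dusp6 (14.6).

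**Figure D1:**
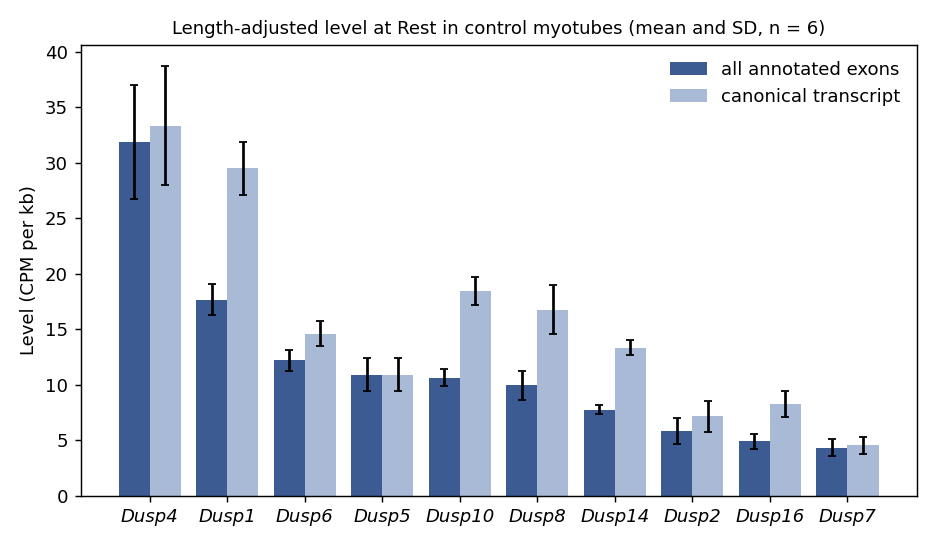
Level of each member at Rest in control myotubes in CPM per kb, over all annotated exons (dark bars) or over the canonical transcript (light bars); bars show the mean and error bars the SD of 6 libraries. Dusp4 and Dusp1 are the highest with either length, and Dusp7 is the lowest.

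The makeup of the family is given as a description, without a test. Dusp16 made up 4.22% ± 0.523 (SD, n = 6) of the summed per-kb level of the 10 members at Rest in control myotubes, 8.39% ± 2.20 at EPS 0h and 9.49% ± 2.48 at EPS 3h. Dusp4 went the other way as a share, from 27.4% ± 3.35 at Rest to 22.6% ± 4.08 at EPS 0h, while its own level had no called change. The sum over the members was between 106.6 and 128.5 CPM per kb at Rest in control myotubes, between 118.6 and 141.6 at EPS 0h and between 118.2 and 150.1 at EPS 3h, so the groups overlapped. In Tug1 KD myotubes it was between 85.55 and 116.9 at Rest and overlapped with control in each condition.

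Immediately after EPS in control myotubes, 4 members rose and 2 fell, against 20.5% of all genes called higher and 18.4% lower (38.9% in all). Higher genes were Dusp16, Dusp2, Dusp8 and Dusp1, and lower genes were Dusp10 and Dusp6. The median log2FC was 0.09 over the 10 members and -0.03 over all genes, and the median absolute log2FC was 0.36 and 0.28. Libraries of the 2 groups did not overlap for 5 members, against 22% of all genes. Under a second rule (an FDR under 0.01 with a log2FC over 1 in size, which widens the study's rule for upregulated genes to both directions), 1 member was called, Dusp16, against 8.43% of genes. Markers of dividing or undifferentiated myoblasts moved as well, with 2 of 6 higher and 1 lower and summed levels from 136.7 to 176.3 CPM at Rest and from 174.9 to 210.4 at EPS 0h, and their part in the results was not tested. Of 4 tested fibroblast markers 2 were lower at both times after EPS, also not tested for their part. In bulk RNA, a change in the share of cells and a change in RNA per cell cannot be told apart.

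The JNK- and p38-directed members all responded to EPS, in different directions. Dusp16 ranged from 35.9 to 51.5 with a median of 43.4 CPM at Rest, from 65.6 to 121 with a median of 98.0 at EPS 0h and from 95.0 to 141 with a median of 103 at EPS 3h in control myotubes. Every stimulated library lay above every Rest library. The rise was 2.24-fold at EPS 0h (log2FC 1.16 ± 0.14, FDR = 5.01e-08) and 2.56-fold at EPS 3h (log2FC 1.36 ± 0.14, FDR = 5.87e-10). Dusp8 ranged from 67.7 to 99.8 with a median of 78.8 CPM at Rest, from 127 to 153 with a median of 136 at EPS 0h and from 118 to 153 with a median of 132 at EPS 3h. It too had no overlap with Rest at either time (log2FC 0.75 ± 0.10, FDR = 1.83e-07 at EPS 0h and log2FC 0.74 ± 0.10, FDR = 8.66e-08 at EPS 3h), and it had no called change between the 2 times (FDR = 0.966). Dusp10 fell and then rose again. It ranged from 59.5 to 71.5 with a median of 65.2 CPM at Rest, from 28.7 to 51.7 with a median of 36.7 at EPS 0h and from 52.9 to 95.4 with a median of 81.7 at EPS 3h. All EPS 0h libraries were below all Rest libraries (log2FC -0.76 ± 0.16, FDR = 0.000258), all EPS 3h libraries were above all EPS 0h libraries (log2FC 0.99 ± 0.16, FDR = 2.03e-05), and EPS 3h overlapped Rest (FDR = 0.227).

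Within the replicate sets, Dusp16 at EPS 0h rose by 1.29 on the log2 scale in set A and by 1.00 in set B, and Dusp8 by 0.61 and 0.90. For Dusp10 the log2FC was -0.55 and -1.02. All of these were called in both sets. For Dusp10 at EPS 3h against Rest the log2FC was 0.46 (FDR = 0.00843) in set A and -0.03 (FDR = 0.864) in set B, and the difference between the sets was not called (FDR = 0.303).

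Of the nuclear inducible members, Dusp1 and Dusp2 rose at EPS 0h and Dusp5 at EPS 3h, and Dusp4 was not called. Dusp2, which acts on ERK and p38, ranged from 8.65 to 15.2 with a median of 12.8 CPM at Rest in control myotubes, from 20.0 to 30.7 with a median of 23.5 at EPS 0h and from 9.47 to 23.7 with a median of 14.4 at EPS 3h. EPS 0h libraries were all above Rest (log2FC 0.94 ± 0.18, FDR = 0.000106), and the level then fell (log2FC -0.61 ± 0.18, FDR = 0.0163). This fall was not called without replicate 1 (FDR = 0.0654), without replicate 2 (FDR = 0.0673) or without replicate 6 (FDR = 0.101). Against Rest, Dusp2 was not called at EPS 3h (FDR = 0.138), but was without replicate 1 (log2FC 0.50, FDR = 0.038). Dusp1, the classic immediate-early phosphatase, ranged from 52.0 to 65.9 with a median of 57.6 CPM at Rest and from 67.4 to 93.4 with a median of 73.8 at EPS 0h, without overlap (log2FC 0.36 ± 0.10, FDR = 0.00345). At EPS 3h it ranged from 48.4 to 70.7 with a median of 60.5 (log2FC -0.35 ± 0.10, FDR = 0.0104 against EPS 0h). That fall was not called without replicate 6 (FDR = 0.0606), and the rise at EPS 0h was 0.27 (FDR = 0.0972) in set A alone and 0.46 (FDR = 0.015) in set B alone.

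Dusp5, a phosphatase specific for ERK, rose in the recovery period. In control myotubes it ranged from 23.1 to 33.8 with a median of 26.2 CPM at Rest, from 25.9 to 34.2 with a median of 29.8 at EPS 0h and from 30.2 to 61.0 with a median of 40.6 at EPS 3h. Rest and EPS 0h overlapped (FDR = 0.466). The EPS 3h libraries were higher than Rest (log2FC 0.72 ± 0.14, FDR = 7.43e-05) and higher than EPS 0h (log2FC 0.58 ± 0.14, FDR = 0.00377), with overlap in both. Without the 2 EPS 3h libraries that stood apart, these were 0.63 (FDR = 0.000546) and 0.49 (FDR = 0.0194). Dusp4, which acts on ERK, JNK and p38 in the nucleus, had medians of 88.1, 87.2 and 91.5 CPM in the 3 conditions and was not called in any EPS comparison.

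At EPS 3h in control myotubes 3 members were higher than Rest and 1 lower, against 26.1% and 25.9% of all genes (52% in all). Libraries did not overlap for 3 members, against 28.9% of genes, and 1 member, Dusp16, passed the second rule, against 14.3%. The median log2FC was 0.12 over the members and -0.02 over all genes. The higher genes were Dusp16, Dusp8 and Dusp5, and the lower gene was Dusp14, which can act on JNK and ERK. Dusp14 ranged from 38.8 to 43.9 with a median of 40.1 CPM at Rest, from 34.5 to 46.8 with a median of 42.6 at EPS 0h and from 23.7 to 29.4 with a median of 25.96 at EPS 3h. The EPS 3h libraries lay below all others in control myotubes (log2FC -0.63 ± 0.10, FDR = 2.49e-06 against Rest and log2FC -0.67 ± 0.10, FDR = 6.17e-06 against EPS 0h). Between EPS 3h and EPS 0h, 2 members were higher (Dusp10 and Dusp5) and 3 lower (Dusp14, Dusp2 and Dusp1), against 9.67% and 6.88% of all genes (16.6% in all). Ranges were apart for 2 members, Dusp10 and Dusp14, against 7.29% of genes. The myoblast markers had 1 of 6 higher and 2 lower at EPS 3h against Rest, and 2 lower against EPS 0h, Pax7 (log2FC -0.93) and Myf5 (log2FC -0.97), both without overlap. Their part in the results was not tested.

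The cytoplasmic ERK phosphatases had few called changes. Dusp6 ranged from 36.6 to 44.7 with a median of 41.6 CPM at Rest and from 23.7 to 40.9 with a median of 31.2 at EPS 0h in control myotubes, with overlap, and its fall was at the edge of the threshold (log2FC -0.36 ± 0.15, FDR = 0.049). It was not called without replicate 1, 2, 4, 5 or 6, with FDR between 0.0674 and 0.149, nor within either replicate set. With the replicate block the FDR was 0.0115. Dusp7 had medians of 16.9, 18.7 and 15.8 CPM and was not called in any EPS comparison in control or Tug1 KD myotubes.

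**Figure D2:**
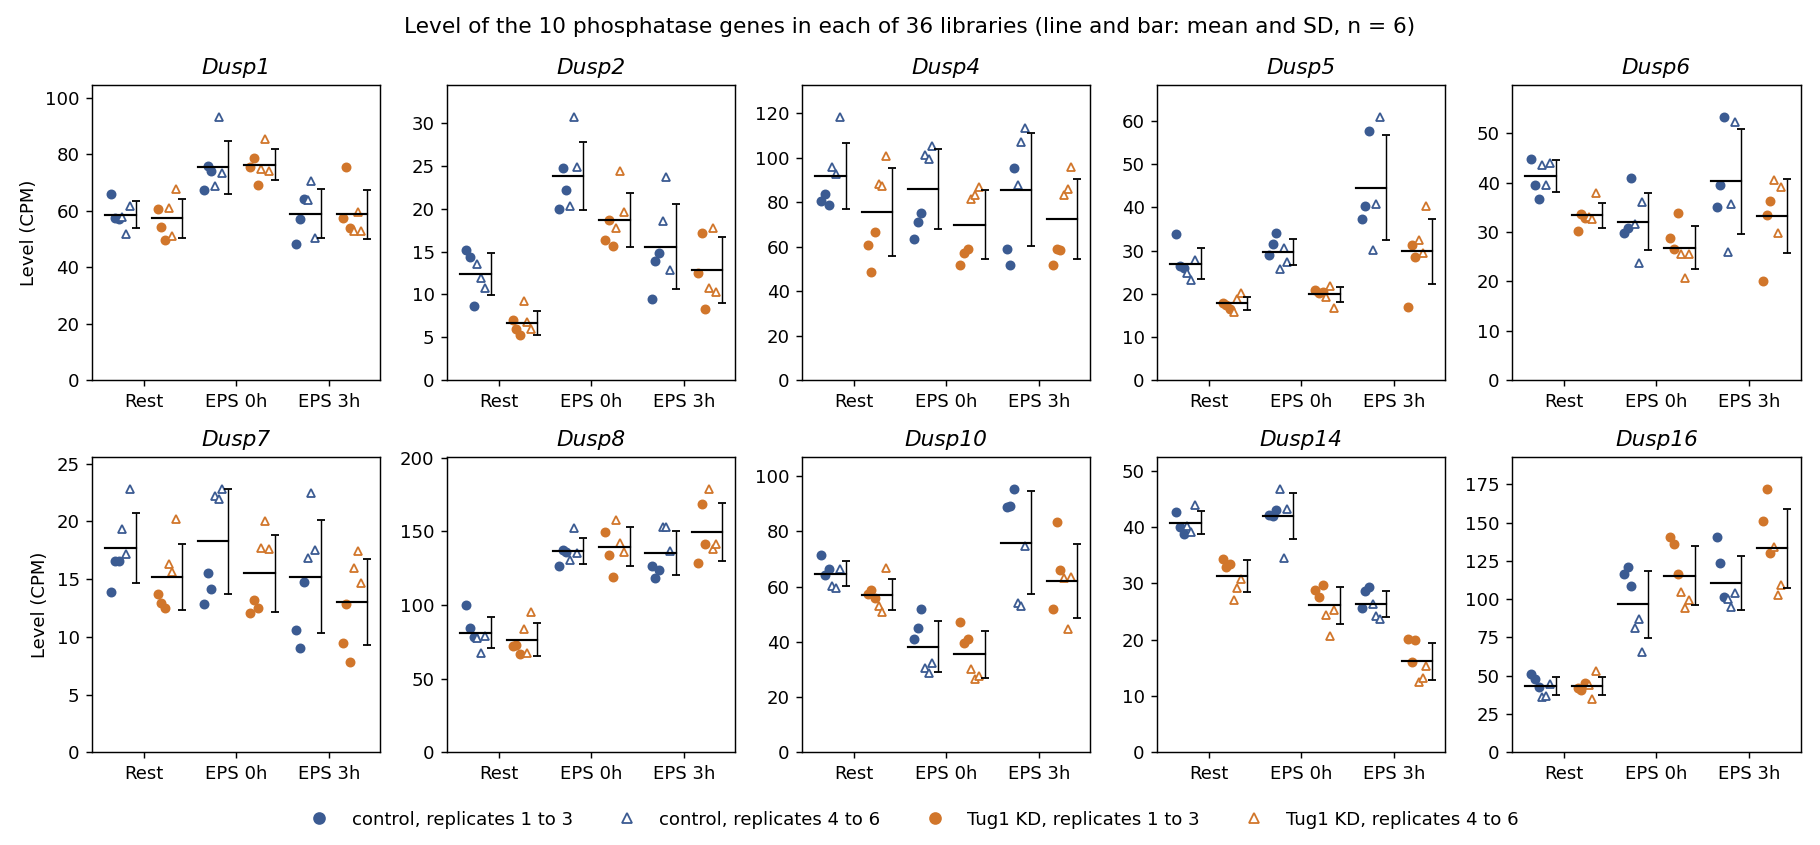
Level in CPM of each member in each of the 36 libraries, by condition and LNA; circles are replicates 1 to 3, triangles replicates 4 to 6, and lines with bars the mean and SD of 6 libraries. Dusp16 and Dusp8 are high at both times after EPS, Dusp1 and Dusp2 are highest at EPS 0h, Dusp10 is lowest at EPS 0h, and Dusp14 is lowest at EPS 3h.

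Tug1 KD myotubes were stimulated in the same way. At EPS 0h 4 members were higher than Rest and 2 lower, against 24.4% and 21.2% of genes (45.6% in all), and at EPS 3h 4 were higher and 1 lower, against 26.2% and 25.9% (52.1% in all). Ranges were apart for 5 members at EPS 0h and 3 at EPS 3h, against 22.5% and 29.8% of genes. Dusp16 ranged from 35.0 to 53.0 with a median of 43.1 CPM at Rest, from 94.3 to 140.4 with a median of 111 at EPS 0h and from 103 to 172 with a median of 132 at EPS 3h (log2FC 1.41 ± 0.14, FDR = 6.97e-10 and log2FC 1.62 ± 0.14, FDR = 8.92e-12). Dusp8 ranged from 66.6 to 95.3 with a median of 72.7, from 119 to 158 with a median of 139 and from 129 to 179 with a median of 141 (log2FC 0.87 ± 0.10, FDR = 6.63e-09 and log2FC 0.97 ± 0.10, FDR = 2.33e-10). Neither gene overlapped between stimulated and Rest libraries. Dusp2 ranged from 5.26 to 9.27 with a median of 6.40 CPM at Rest, from 15.6 to 24.4 with a median of 18.2 at EPS 0h and from 8.33 to 17.8 with a median of 11.6 at EPS 3h, with a 2.78-fold rise at EPS 0h (log2FC 1.48 ± 0.19, FDR = 9.01e-08) and a 1.90-fold rise at EPS 3h (log2FC 0.93 ± 0.19, FDR = 9.66e-05). Dusp16 and Dusp2 passed the second rule at EPS 0h, against 10.7% of genes, and Dusp16 alone at EPS 3h, against 15.5%. The 6 myoblast markers had 3 higher and 1 lower at EPS 0h, with summed levels from 122.8 to 153.9 CPM at Rest and from 155 to 201.2 CPM at EPS 0h. They had 1 higher and 2 lower at EPS 3h. Of the fibroblast markers 2 of 4 were lower at both times, and of the 10 myotube markers 1 was higher and 1 lower at EPS 0h, and 1 higher and 2 lower at EPS 3h. The part of these markers in the results was not tested.

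The remaining calls against Rest in Tug1 KD myotubes were for Dusp1, Dusp10, Dusp14 and Dusp5. Dusp1 was higher at EPS 0h (log2FC 0.41 ± 0.10, FDR = 0.000915) without overlap with Rest, and Dusp10 was lower (log2FC -0.69 ± 0.16, FDR = 0.000626), also without overlap. Dusp14 was lower at EPS 0h (log2FC -0.26 ± 0.10, FDR = 0.032) with overlap, a call lost without replicate 1 (FDR = 0.063), 2 (FDR = 0.0828) or 5 (FDR = 0.0793). It was lower at EPS 3h without overlap (log2FC -0.95 ± 0.10, FDR = 1.12e-09). Dusp5 was higher at EPS 3h (log2FC 0.74 ± 0.15, FDR = 5.81e-05). Dusp6 at EPS 0h had a log2FC of -0.31 and an FDR of 0.0805, and it was called with the replicate block (FDR = 0.0312), which pairs libraries of the same number, and without replicate 3 (FDR = 0.0408).

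From EPS 0h to EPS 3h in Tug1 KD myotubes, 2 members rose and 3 fell, against 8.59% and 7.13% of genes (15.7% in all), and ranges were apart for 1 member, Dusp14, against 6.87%. The called members were Dusp10 (log2FC 0.81 ± 0.16, FDR = 0.000319) and Dusp5 (log2FC 0.58 ± 0.15, FDR = 0.00417) on the higher side, and Dusp14 (log2FC -0.69 ± 0.10, FDR = 5.68e-06), Dusp2 (log2FC -0.55 ± 0.18, FDR = 0.0378) and Dusp1 (log2FC -0.38 ± 0.10, FDR = 0.00611) on the lower. The fall of Dusp2 was not called without replicate 3 (FDR = 0.101), 4 (FDR = 0.118) or 6 (FDR = 0.187), nor without the 2 libraries that stood apart (FDR = 0.127).

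**Figure D3:**
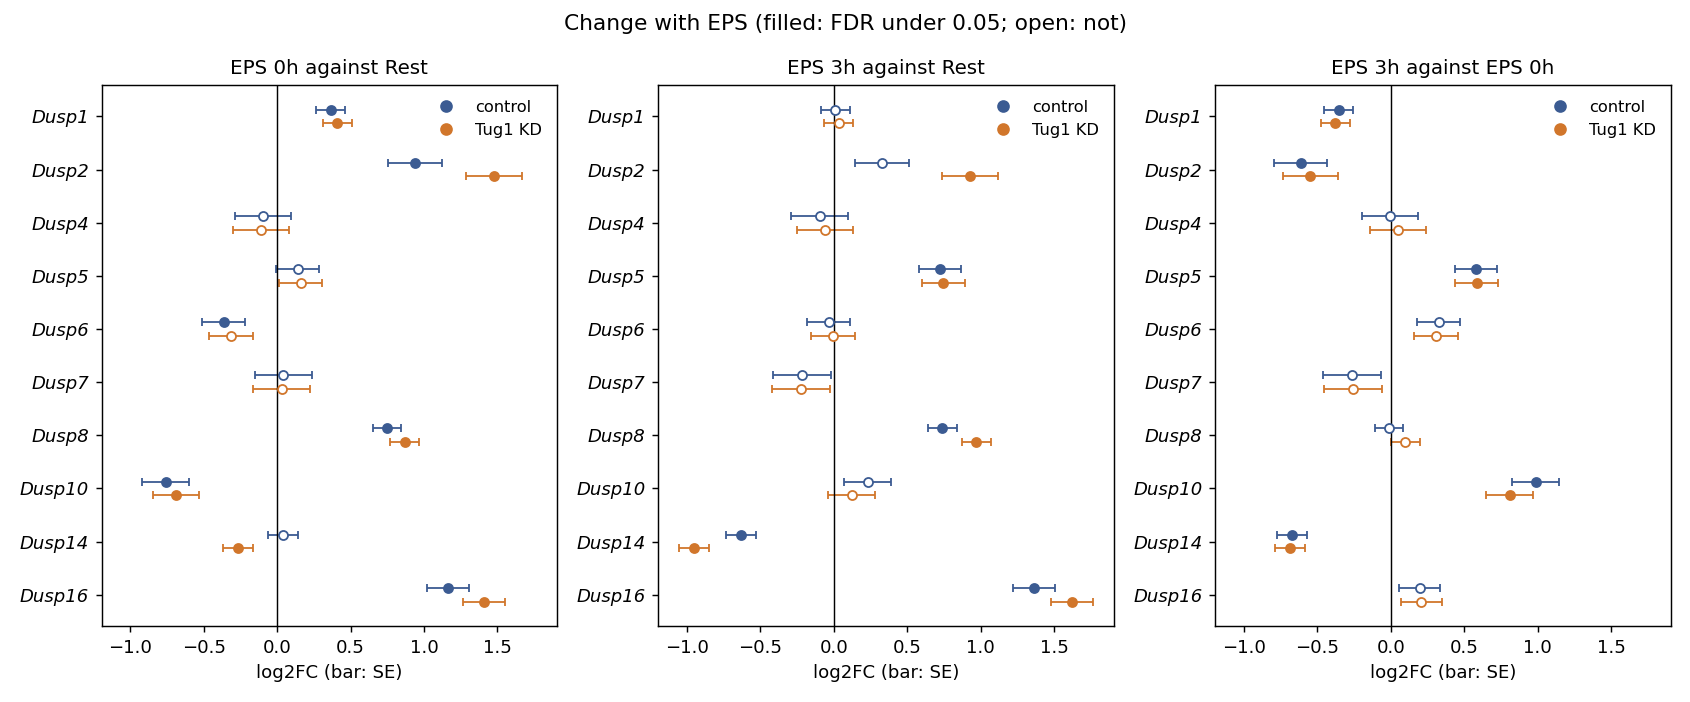
Change of each member with EPS on the log2 scale, for EPS 0h against Rest, EPS 3h against Rest and EPS 3h against EPS 0h, in control (blue) and Tug1 KD (orange) myotubes; points are the fitted log2FC, bars its SE, and filled points have an FDR under 0.05. Dusp16 and Dusp8 lie to the right of 0 at both times in both LNAs, and Dusp14 lies to the left at EPS 3h.

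Tug1 KD was then compared with control within each condition, where the Tug1 LNA left Tug1 at 0.563 (Rest), 0.673 (EPS 0h) and 0.701 (EPS 3h) of its control level. At Rest 3 members were lower and 0 higher, against 4.47% and 5.54% of genes (10% in all). At EPS 0h 2 members were lower and 0 higher, against 6.07% and 8.25% (14.3% in all), and at EPS 3h 2 were lower and 0 higher, against 5.11% and 6.38% (11.5% in all). The median log2FC of the members was -0.25, -0.25 and -0.26 at Rest, EPS 0h and EPS 3h, while that of all genes was -0.03, 0.00 and -0.01. Libraries of the 2 LNAs did not overlap for 2, 2 and 1 members, against 8.07%, 7.94% and 4.62% of genes.

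Dusp5 and Dusp14 were lower in all 3 conditions. Dusp5 ranged from 15.9 to 20.2 with a median of 17.6 CPM in Tug1 KD myotubes at Rest, from 16.7 to 21.8 with a median of 20.4 at EPS 0h and from 16.9 to 40.3 with a median of 30.3 at EPS 3h. These lay below all control libraries at Rest (log2FC -0.60 ± 0.15, FDR = 0.00467) and at EPS 0h (log2FC -0.58 ± 0.15, FDR = 0.00484), and overlapped with control at EPS 3h (log2FC -0.58 ± 0.14, FDR = 0.00589). At EPS 3h the call was lost without replicate 3 (log2FC -0.48, FDR = 0.0596), and held without only the 2 libraries that stood apart (log2FC -0.47, FDR = 0.0439). Within sets, the log2FC of Dusp5 at EPS 3h was -0.82 in set A and -0.37 in set B, the latter not called (FDR = 0.228). At EPS 0h it was -0.62 (FDR = 0.0556) and -0.53 (FDR = 0.0588), called in neither set alone, and at Rest -0.73 (FDR = 0.0237) and -0.46 (FDR = 0.1).

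Dusp14 ranged from 27.1 to 34.4 with a median of 31.8 CPM in Tug1 KD myotubes at Rest, from 20.7 to 29.8 with a median of 26.4 at EPS 0h and from 12.4 to 20.2 with a median of 15.7 at EPS 3h. All of them lay below the control libraries of the same condition. The differences were log2FC -0.38 ± 0.10, FDR = 0.0097 at Rest, log2FC -0.69 ± 0.10, FDR = 7.19e-06 at EPS 0h and log2FC -0.70 ± 0.10, FDR = 9.83e-06 at EPS 3h. The call at Rest was lost without replicate 6 (log2FC -0.32, FDR = 0.0835) and in set A alone (FDR = 0.117), and the calls after EPS held within both sets.

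Dusp2 was lower with Tug1 KD at Rest, at 6.73 ± 1.40 CPM against 12.4 ± 2.45 CPM in control myotubes (SD, n = 6). That is 0.543 of the control level (log2FC -0.88 ± 0.19, FDR = 0.00139), and the libraries overlapped only slightly, with the highest Tug1 KD library at 9.27 CPM and the lowest control library at 8.65 CPM. After EPS the gene was not called, with medians of 18.2 CPM in Tug1 KD and 23.5 CPM in control myotubes at EPS 0h (FDR = 0.222) and 11.6 and 14.4 CPM at EPS 3h (FDR = 0.39). Dusp4 was not called at EPS 0h (FDR = 0.34), but was with the replicate block (log2FC -0.30, FDR = 0.011). Dusp1, Dusp6, Dusp7, Dusp8, Dusp10 and Dusp16 were not called in any of the 3 conditions. Within pairs of libraries of the same replicate number, 7 members had 1 direction in 6 of 6 pairs at EPS 0h, against 38.3% of all genes, with Dusp2, Dusp4, Dusp5, Dusp6, Dusp7 and Dusp14 lower and Dusp16 higher in Tug1 KD. At EPS 3h there were 2, Dusp14 lower and Dusp16 higher, against 22.1% of all genes. Summed myotube markers overlapped between the 2 LNAs in each condition, and 0 of the 10 myotube markers were called with Tug1 KD. Of 4 tested fibroblast markers 1 was lower in each condition, and its part in the results was not tested. The 6 myoblast markers had a median log2FC of -0.23, -0.25 and -0.21 in the 3 conditions, close to that of the members, with 0, 0 and 1 called lower, and their summed levels overlapped between the LNAs in each condition. Their part in the results was not tested either.

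**Figure D4:**
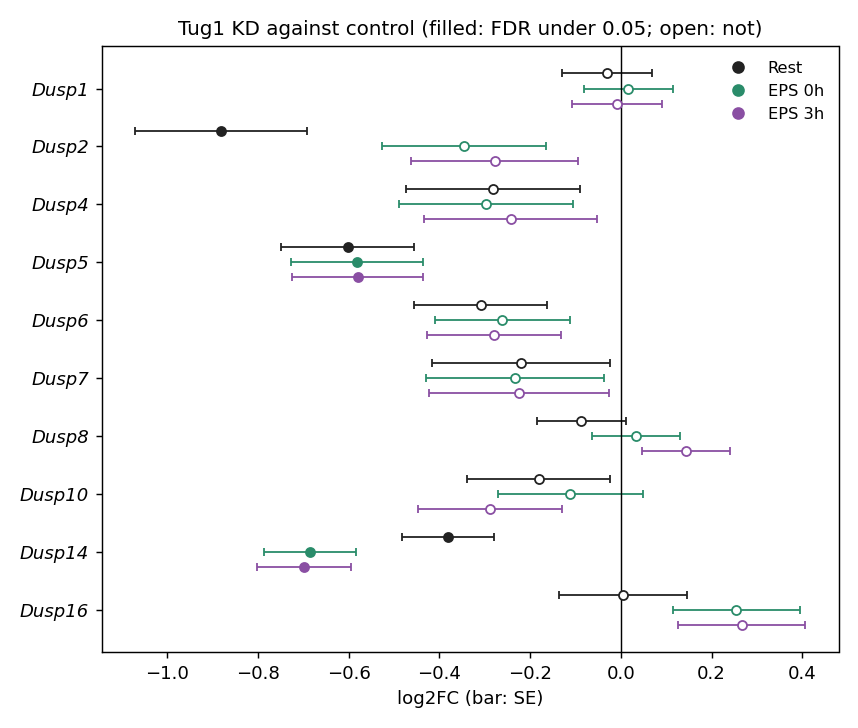
Difference between Tug1 KD and control myotubes for each member on the log2 scale at Rest (black), EPS 0h (green) and EPS 3h (purple); points are the fitted log2FC, bars its SE, and filled points have an FDR under 0.05. Dusp5 and Dusp14 are filled in all 3 conditions, Dusp2 at Rest alone.

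Whether Tug1 KD altered the response to EPS was tested as an interaction. By edgeR's quasi-likelihood test, 0 members were called at EPS 0h and 0 at EPS 3h, against 0% and 0.00715% of genes (0 and 1 gene of 13995). DESeq2 and limma-voom also called 0 members. At an unadjusted p under 0.05 there were 324 and 430 genes by edgeR, 311 and 409 by limma-voom and 352 and 467 by DESeq2, and by edgeR 2 of them were members in each case. Each count is below a share of 0.05 of the 13995 genes, the share that chance alone would pass. Both interactions use the same Rest libraries, so the values at EPS 0h and EPS 3h are not independent. Dusp2 had a larger rise in Tug1 KD than in control myotubes by 0.54 at EPS 0h (unadjusted p = 0.0475, FDR = 1 by edgeR) and by 0.60 at EPS 3h (unadjusted p = 0.0282, FDR = 1 by edgeR). Dusp14 had an interaction of -0.30 at EPS 0h (unadjusted p = 0.0395, FDR = 1 by edgeR) and -0.32 at EPS 3h (unadjusted p = 0.0345, FDR = 1 by edgeR). No member was therefore shown to respond differently to EPS with Tug1 KD, and the calls for Dusp2 at Rest but not after EPS do not show a difference between conditions.

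The average Tug1 KD difference over the 3 conditions was added after the data had been seen. It called 4 members lower and 0 higher, against 17% and 16.1% of genes (33.1% in all), namely Dusp14 (log2FC -0.59 ± 0.06, FDR = 5.16e-10), Dusp5 (log2FC -0.59 ± 0.08, FDR = 7.65e-07), Dusp2 (log2FC -0.50 ± 0.11, FDR = 0.000321) and Dusp6 (log2FC -0.28 ± 0.09, FDR = 0.00915). With a term for the replicate set, which called 41.7% of genes, Dusp4 (log2FC -0.29 ± 0.06, FDR = 0.000126), Dusp7 (log2FC -0.22 ± 0.06, FDR = 0.00476) and Dusp10 (log2FC -0.18 ± 0.07, FDR = 0.0286) were also lower and Dusp16 (log2FC 0.18 ± 0.06, FDR = 0.0151) was higher. The replicate block gave the same calls among the members, against 43.6% of genes. Dusp1 and Dusp8 were not called in any of these fits.

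The replicate sets themselves differed for 5 members, against 58.3% of all genes. The sets were taken from these same data, so differences between them were built in and the FDR values only describe their size. Set B was higher for Dusp4 (log2FC 0.56 ± 0.06, FDR = 7.46e-10) and Dusp7 (log2FC 0.56 ± 0.06, FDR = 6.27e-09), and lower for Dusp10 (log2FC -0.35 ± 0.07, FDR = 4.79e-05), Dusp16 (log2FC -0.31 ± 0.06, FDR = 5.07e-05) and Dusp14 (log2FC -0.18 ± 0.05, FDR = 0.00158). Dusp7 did not overlap between sets in any group, for example with means of 14.2 and 22.3 CPM in sets A and B at EPS 0h in control myotubes. Dusp4 overlapped in EPS 3h control alone, through replicate 3 at 95.2 CPM. That library was counted in set A but lay with set B on the leading principal component. The spread of both genes within groups was thus mostly between sets. Differences between the sets in the responses to EPS or Tug1 KD were called for 0 members by edgeR, against at most 0.336% of all genes in 7 of the 8 responses tested and 6.46% in the response of Tug1 KD myotubes at EPS 0h.

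Across the 36 libraries, members followed each other in part, described here without a test because all libraries share the design, the depth and the replicate sets. The highest Pearson correlations of log2 CPM were between Dusp8 and Dusp16 (r = 0.897), Dusp4 and Dusp7 (r = 0.853), Dusp1 and Dusp2 (r = 0.755) and Dusp6 and Dusp10 (r = 0.701). By ranks the order differed, with Spearman rho of 0.673, 0.869, 0.782 and 0.745 for these pairs. Dusp4 and Dusp7 both differed between the replicate sets, and their r was not centred within sets. Dusp1 and Dusp10 had the most negative, r = -0.638. Of all genes tested, those most like Dusp16 were Traf6 (r = 0.989), Zscan29 (r = 0.983) and Mc4r (r = 0.981), and those most like Dusp8 were Ccdc117 (r = 0.962), Tsc22d2 (r = 0.962) and Amotl2 (r = 0.958). Lin37 was most like Dusp14 (r = 0.935), Ccdc71l most like Dusp5 (r = 0.903), Vmp1 most like Dusp10 (r = 0.9), Ankrd34a most like Dusp2 (r = 0.879), Areg most like Dusp6 (r = 0.859) and Flcn most like Dusp1 (r = 0.812). For Dusp4 it was Rnf19b (r = 0.904) and for Dusp7 Trim8 (r = 0.908), and these fell to 0.768 and 0.821 when libraries were centred within the replicate sets.

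The rest of the MAP kinase pathway was read from gene lists. Of the 78 tested genes of the 7 lists, 37 were called at EPS 0h in control myotubes (47.4%, against 38.9% of all genes). At EPS 3h 41 were called (52.6%, against 52% of all genes). Of all genes, 20.5% were higher and 18.4% lower at EPS 0h, and 26.1% higher and 25.9% lower at EPS 3h. Of 11 other DUSP-named phosphatases tested, which include the ERK phosphatase Dusp9, 0 were higher and 4 lower at EPS 0h in control myotubes, and 0 higher and 4 lower at EPS 3h, led by Dusp13 (log2FC -1.08 ± 0.12, FDR = 1.79e-08 and log2FC -1.04 ± 0.12, FDR = 1.12e-08). The list of Sprouty and Spred inhibitors of ERK signalling also held the EGF receptor inhibitor Errfi1. Of its 7 tested genes, 3 were higher and 0 lower at EPS 0h, and 4 higher and 0 lower at EPS 3h. Spred1, which holds back RAF, had log2FC 0.78 and log2FC 1.07, and Errfi1 had log2FC 0.77 at EPS 3h. Of 11 MAP kinases, 3 were higher and 6 lower at EPS 0h and 4 higher and 4 lower at EPS 3h. Mapk6 (ERK3) was higher (log2FC 0.67 ± 0.12, FDR = 1.95e-05 and log2FC 0.91 ± 0.12, FDR = 3.89e-08), and Mapk11 (p38 beta) was lower (log2FC -0.91 ± 0.12, FDR = 3.01e-07 and log2FC -1.10 ± 0.12, FDR = 2.66e-09).

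Upstream kinases were mixed, against the same shares of all genes. Of 7 MAP kinase kinases, 1 was higher and 2 lower at both times, with Map2k4 at log2FC 0.67 and Map2k7 at log2FC -0.74 at EPS 3h, both of them kinases of JNK. Of 19 MAP3K and RAF kinases, 6 were higher and 2 lower at EPS 0h and 7 higher and 3 lower at EPS 3h. Map3k15 had the largest rise at EPS 3h (log2FC 2.60 ± 0.23, FDR = 1.36e-11). Its mean was 1.08 CPM at Rest, close to the filter of 1 CPM, and 6.62 CPM at EPS 3h. The MAPK-activated kinases had 2 of 9 higher and 1 lower at EPS 0h, and 2 higher and 2 lower at EPS 3h. Of 14 ERK-responsive transcription genes, 2 were higher and 5 lower at EPS 0h, with Phlda1 at log2FC 1.44, Fos at log2FC 0.73 and Ier3 at log2FC -1.11, and 5 were higher and 3 lower at EPS 3h, with Egr1 at log2FC 0.79.

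With Tug1 KD, 15 of the 78 tested genes of the 7 lists were called at Rest (19.2%, against 10% of all genes), 19 at EPS 0h (24.4%, against 14.3%) and 9 at EPS 3h (11.5%, as over all genes). At Rest 2 of 14 ERK-responsive genes were lower, Egr3 (log2FC -0.61 ± 0.14, FDR = 0.00333) and Egr1 (log2FC -0.48 ± 0.15, FDR = 0.0324). Of the 7 genes of the list of Sprouty, Spred and Errfi1, 2 were lower, Spry2 (log2FC -0.50 ± 0.12, FDR = 0.00536) and Errfi1 (log2FC -0.41 ± 0.11, FDR = 0.0105). The median log2FC of the ERK-responsive genes was -0.35 at Rest, -0.30 at EPS 0h and -0.09 at EPS 3h. Dusp23, an atypical phosphatase of the list of other DUSPs, was lower in all 3 conditions (log2FC -0.94, log2FC -0.94 and log2FC -0.84). It lay close to the filter of 1 CPM, with control means of 1.66, 1.02 and 1.08 CPM and Tug1 KD means of 0.863, 0.533 and 0.594 CPM. It passed the filter mostly through control libraries, so these differences carry little weight. Among MAPK-activated kinases, Rps6ka1 was lower and Rps6ka3 higher in all 3 conditions, with log2FC -1.16 and log2FC 0.76 at Rest. Of 19 MAP3K and RAF kinases, 3 were higher and 1 lower at Rest, 4 higher and 2 lower at EPS 0h, and 4 higher and 0 lower at EPS 3h, with Map3k20 higher in each (log2FC 0.73, log2FC 0.81 and log2FC 0.76). The MAP kinases had 3 of 11 higher and 1 lower at Rest, then 2 higher with 2 lower at EPS 0h, and 1 higher with 0 lower at EPS 3h. Of 7 MAP kinase kinases 0, 1 and 1 were higher in these conditions and 0 lower.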

How the data were processed

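RNA was sequenced by the authors from 36 libraries. Per the labels and the paper's methods, poly-A RNA was made into directional libraries, sequenced as paired reads, trimmed with fastp 0.14.1, checked with FastQC 0.11.7, aligned with STAR 2.5 to GRCm39 and counted per gene. The counter and its strand setting are not given in the sources used here. The deposited values are raw counts for 55416 genes, of which 1492 have no name and hold 0.0327% of the counts. The matrix equals the separate files of all 36 libraries. Spike-in RNA was not used here. No pair of libraries in a group agreed within counting error (smallest chi-square per degree of freedom 3.984).

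Genes with at least 1 CPM in at least 12 libraries were kept (13995). Counts were scaled by TMM and fitted with edgeR 4.0.16 (R 4.3.3, glmQLFit robust, glmQLFTest) over 6 groups without a block, called at an FDR under 0.05 over all genes, and the SE was taken as the absolute log2FC over the root of its F value. CPM uses the TMM-scaled library size. In the shallowest library 3 counts equal 0.176 CPM, and the 10 genes had at least 98 counts in every library. The fits of edgeR, limma-voom and DESeq2 without a block were tried on simulated data. This covered EPS 0h against Rest in control and the interaction at EPS 0h. The other fits and comparisons were not simulated. Alternatives were DESeq2 1.42.0, limma-voom (limma 3.58.1), library-size and upper quartile scaling, no filter or one of 10 counts in 6 libraries, a replicate block, a term for the replicate set, fits to the groups compared, to each set and without each replicate. Replicate numbers come from the titles. Libraries of the same number were taken as pairs where every correlation of their deviations from the group means exceeded 0.1, which held for EPS 0h and EPS 3h against Rest in control, EPS 0h against Rest and EPS 3h against EPS 0h in Tug1 KD, and Tug1 KD against control at EPS 0h (0.626 to 0.754) and EPS 3h (0.217 to 0.743). It did not hold for the others. Within the replicate sets the correlations of EPS 0h against Rest were lower, -0.228 to 0.148 in control and -0.0585 to 0.283 in Tug1 KD, so the pairing there rests largely on the sets. Only Tug1 KD against control at EPS 0h (0.242 to 0.581) and EPS 3h (0.0186 to 0.744) stayed above 0 within sets.

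Positions, lengths and promoters are from GENCODE vM39 on GRCm39, read from the genome sequence. Dusp1, Dusp2, Dusp5, Dusp6, Dusp8, Dusp10 and Dusp16 overlap an annotated antisense gene, whose reads could count towards them if strand was ignored. The members and gene lists were chosen with earlier results of these data known. Genes named are the members, Tug1, those with the highest correlation with each member, and, of each pathway list, at most the 2 largest rises and falls. Protein sequences were not used here.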

Additional observations from a re-analysis of the deposited data

Results flagged for a closer look

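Each member was tested for a library far from the other 5 of its group by Dixon's test, in 60 sets of 6 libraries, where chance alone flags about 1 in 20. Dusp1 stood out in 2 of them. In EPS 0h control, replicate 5 was at 93.4 CPM and the next library at 75.8 CPM. In EPS 3h Tug1 KD, replicate 2 was at 75.5 CPM and the next at 59.6 CPM. Without replicate 5, the rise of Dusp1 at EPS 0h in control myotubes was 0.26 on the log2 scale (FDR = 0.0423 by edgeR), and without replicate 2 its fall from EPS 0h to EPS 3h in Tug1 KD myotubes had a log2FC of -0.46 (FDR = 0.00386 by edgeR).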

How the results depend on the processing

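Of 110 values (10 members in 11 comparisons), 51 were followed through 18 alternatives, namely those with an unadjusted p under 0.05 or a call under any alternative. This rule was set after the alternatives had been seen. Of these 918 values, 862 kept their direction and side of the threshold, 38 lost the call, 17 gained it and 1 changed sign, Dusp10 at EPS 3h against Rest in control, at -0.03 in replicates 4 to 6 (set B) alone. The other 59 values were called in none of the fits, and 32 of them changed sign in at least 1 alternative (113 of 1062 values); those 32 had log2FC values of at most 0.23 in size, so their direction is not known. The number of members called was 5 for EPS 3h against EPS 0h in control and became 3 in each of set A (replicates 1 to 3) and set B alone, with a range of 3 to 5 when 1 replicate was left out. All genes called went from 16.6% to 14.5% and 12.9%, and 11.4% to 15.9%. In Tug1 KD the same comparison gave 5 (15.7% of genes), and 2 in set A alone (9.77%). Tug1 KD against control gave 2 at EPS 0h (14.3%) and 1 in either set alone (6.45% and 16.7%). At EPS 3h it gave 2 (11.5%), 1 in set B alone (11.2%), 1 when only the groups compared were fitted (5.65%), and 1 to 2 when 1 replicate was left out (7.05% to 9.98%). Smaller numbers of libraries underlie these fits.

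DESeq2, limma-voom and the stricter filter changed no call among the 51. Scaling by library size alone shifted EPS 3h against Rest by -0.168 for control and -0.164 for Tug1 KD myotubes at the median gene, with no called member changing direction. The replicate block changed 3 calls, all gained, Dusp6 at EPS 0h against Rest in Tug1 KD (-0.32) and Dusp4 in Tug1 KD against control at EPS 0h (-0.30) and at Rest (-0.31), where the numbers do not pair the libraries. It gave 7 members at EPS 0h in Tug1 KD, where it called 56.9% of all genes, and 4, 3 and 2 for Tug1 KD at Rest, EPS 0h and EPS 3h, where it called 17.2%, 24.3% and 20.6%. Dusp14 at Rest with Tug1 KD was not called without a filter (FDR = 0.0959), and Dusp5 at EPS 3h with Tug1 KD was not called when only its 2 groups were fitted (FDR = 0.102). The causes were not tested. Wells of 1 experiment share a culture, and the experiment of each replicate number is not given, so 2 experiments are the independent units at most.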
